A study of Mus musculus with 8 samples.

Results

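The genes described are 9 protease inhibitors of mouse granulocyte progenitors: the whey acidic protein (WAP) genes Wfdc17, Wfdc18, Wfdc21 and Slpi, the stefin A genes Stfa1, Stfa2 and Stfa3, the cystatin B gene Cstb and the serpin gene Serpinb1a. They were taken by name, with their measured signals in the 4 groups already known, as 9 of the 20284 named genes on the array, and each was measured by 1 probe. Because the measured signals chose them, their values are given as a description, with no test. The study set bone marrow progenitors (GPs) that carry the receptor Flt3 on their surface against those that do not, in wild-type mice and in mice lacking the transcription factor Irf8. Total RNA of sorted cells was hybridised on 8 one-colour Agilent arrays, in 4 groups of 2 arrays, 1 array per group in each of the independent experiments 1 and 2. The groups were wild-type Flt3+ GPs, wild-type Flt3- GPs, Irf8KO Flt3+ GPs and Irf8KO Flt3- GPs. The cells were freshly isolated and received no treatment, and age, sex, strain and the number of animals behind a sample were not given in the sources used here. The p-values therefore cover the spread between arrays alone, and this spread may be technical. In such bulk samples, fewer cells of a type and less RNA per cell cannot be told apart.

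WAP proteins hold a compact core of disulfide bonds. Slpi, the best known of them, blocks neutrophil elastase and cathepsin G, while Wfdc17 is known from activated macrophages, and the targets of Wfdc18 and Wfdc21 are less clear. Stefins and cystatin B sit in the cytosol and block cysteine cathepsins that leak from lysosomes, and Serpinb1a is an intracellular serpin that traps elastase, proteinase 3 and cathepsin G. Granulocyte progenitors make those serine proteases in bulk for the azurophil granules, so their inhibitors guard the cells that store the enzymes.

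Wfdc17, Wfdc18 and Wfdc21 stand side by side on chromosome 11, with 0 other genes between neighbours in the RefSeq gene table of assembly GRCm38.p6. Stfa1, Stfa2 and Stfa3 lie near each other on chromosome 16, with 6 genes between Stfa1 and Stfa2, 4 of them protein-coding, and 2 between Stfa2 and Stfa3. Slpi is on chromosome 2, Cstb on chromosome 10 and Serpinb1a on chromosome 13. RefSeq promoter sequences of the same build were matched for 6 of the 9 genes, namely Wfdc17, Wfdc18, Slpi, Stfa1, Stfa2 and Stfa3. The 250 bases before the start of Wfdc17 (chr11:83703806-83704055, plus strand) and of Wfdc18 (chr11:83708754-83709003, plus strand) are shown because these neighbours were both high in Flt3+ cells. Capitals mark a match to one of the 6 motifs searched.
Wfdc17: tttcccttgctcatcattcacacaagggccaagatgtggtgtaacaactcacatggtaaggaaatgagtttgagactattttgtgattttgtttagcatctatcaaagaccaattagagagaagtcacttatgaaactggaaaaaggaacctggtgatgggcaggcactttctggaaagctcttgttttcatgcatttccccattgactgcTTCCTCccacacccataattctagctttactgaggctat
Wfdc18: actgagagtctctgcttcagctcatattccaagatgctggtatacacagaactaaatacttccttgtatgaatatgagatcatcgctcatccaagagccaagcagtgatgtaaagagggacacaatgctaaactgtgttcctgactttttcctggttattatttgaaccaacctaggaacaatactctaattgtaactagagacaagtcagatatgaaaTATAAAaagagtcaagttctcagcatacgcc

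The motifs, searched on both strands of those 250 bases, were GGAANNGAA (an IRF-ETS composite, found in 6.99% of all 32851 promoters), GAAANNGAA (an interferon response core, 7.13%), TTGCNNCAA (C/EBP, 1.74%), GAGGAA (PU.1, 23.3%), GGGNNTTTC (NF-kappaB, 3.72%) and TATAAA (a core promoter box, 12.4%). The IRF-ETS and interferon response motifs can overlap each other, and the PU.1 motif can overlap the IRF-ETS motif. Wfdc17 held GAGGAA on the minus strand at -39 to -34, counted from the start, and Wfdc18 held TATAAA at -31 to -26. The Wfdc17 and Wfdc18 windows were 47.9% identical, within the 44.7 to 48.4% range of all pairs that were not 2 stefins. These matches are letters in a window and describe no binding.

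The stefin promoters were much closer to each other, with 80.2 to 83.1% identity over 250 bases, and their last 100 bases are shown because the copies are so alike. They lie at chr16:36277048-36277147 (Stfa1, plus strand), chr16:36408364-36408463 (Stfa2, minus strand) and chr16:36455393-36455492 (Stfa3, minus strand). Capitals mark runs of 8 or more bases that all 3 share, which cover 36 bases in each.
Stfa1: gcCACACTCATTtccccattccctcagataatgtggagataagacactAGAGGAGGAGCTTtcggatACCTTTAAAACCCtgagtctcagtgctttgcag
Stfa2: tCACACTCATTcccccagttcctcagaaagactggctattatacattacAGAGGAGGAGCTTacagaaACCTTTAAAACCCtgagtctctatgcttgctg
Stfa3: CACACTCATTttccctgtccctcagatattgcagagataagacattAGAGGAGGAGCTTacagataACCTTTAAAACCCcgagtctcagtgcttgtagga

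Within their 250 bases, GAGGAA lay on the minus strand at -178 to -173 in Stfa1, at -82 to -77 in Stfa2 and at -135 to -130 in Stfa3. Stfa3 also held GGAANNGAA at -177 to -169, and Slpi held none of the 6 motifs. Whether each stefin probe tells the stefin A genes apart was not tested.

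Signals are given as log2 of the processed intensity over the 75th percentile of its array, so that 0 is that percentile and each step of 1 is a doubling. Between 54.9 and 60.1% of the spots of an array were well above background, 0 spots were saturated, and the 2 arrays of a group correlated at 0.996 to 0.998 across genes. All 8 arrays lay on 1 slide with genotype along its rows and population along its columns, so position and group cannot be told apart. Irf8 itself read 5.80 and 5.87 on wild-type Flt3+ arrays, 4.85 and 4.88 on wild-type Flt3- arrays, 6.67 and 6.67 on arrays labelled Irf8KO Flt3+, and 5.64 and 5.53 on arrays labelled Irf8KO Flt3-. Against its label, the Irf8 probe rose on the Irf8KO arrays by 0.84 in Flt3+ cells (limma with Benjamini-Hochberg adjustment, adjusted p = 0.000226) and by 0.72 in Flt3- cells (adjusted p = 0.000399). Whether the probe lies in the deleted part was not given in the sources used here. Every direction by genotype below thus rests on the labels. The 10 granulocyte progenitor markers include Elane, Prtn3 and Ctsg, so their sum is not independent of the results for these proteases below. All 10 were well above background on every array. Their summed signals were 900 to 979, 2326 to 2467, 1392 to 1396 and 2652 to 2893 times the 75th percentile in wild-type Flt3+, wild-type Flt3-, Irf8KO Flt3+ and Irf8KO Flt3- cells. In the same order, the summed signal of 9 erythroid and megakaryocyte markers was 22.6 to 23.1, 10.3 to 10.4, 1.96 to 1.97 and 2.05 to 2.16, with 8, 8, 7 and 6 of them well above background. The part of either difference in the results below was not tested.

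**Figure D1:**
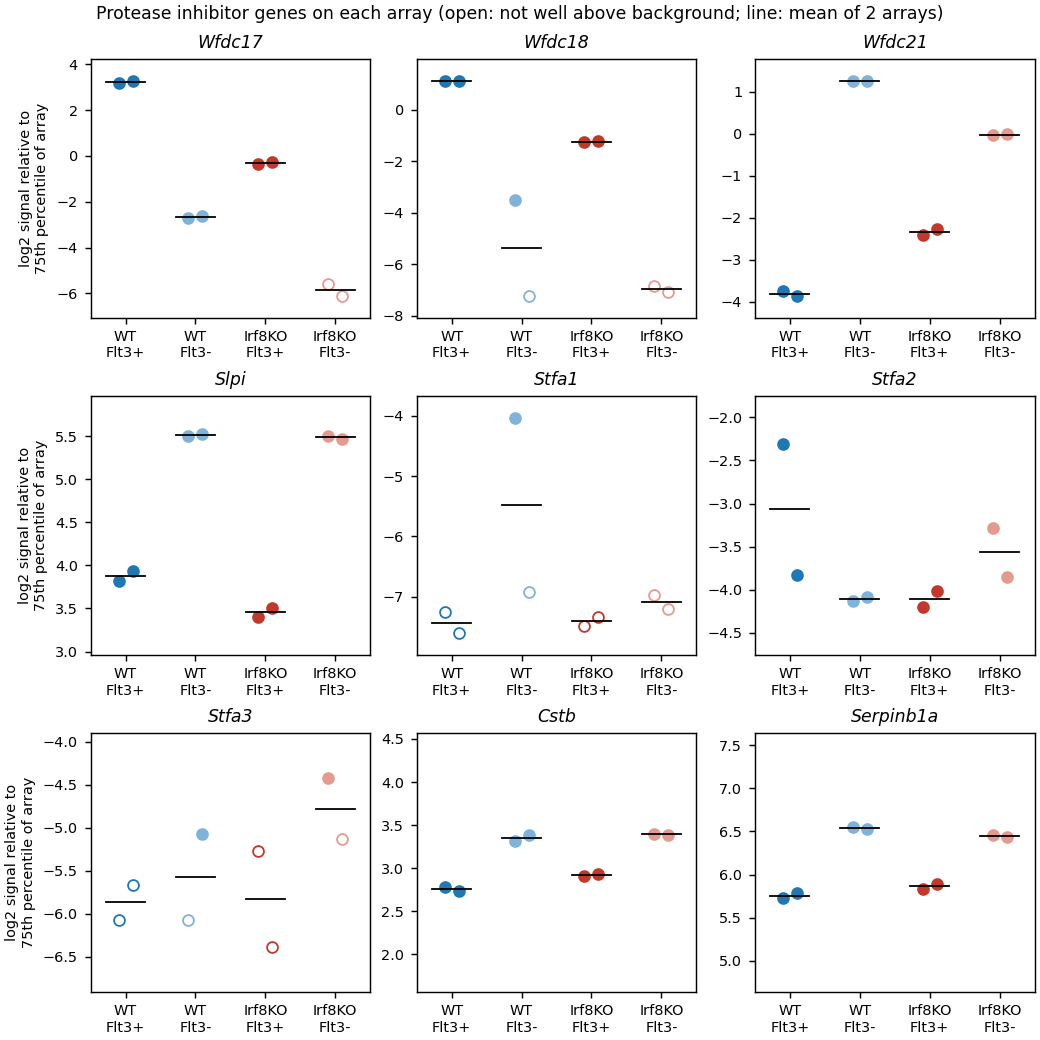
Signal of the 9 genes on each of the 8 arrays, as log2 relative to each array's 75th percentile, with its own vertical range in every panel. Filled points were well above background, open points were not, and lines are means of 2 arrays. Wfdc17 stood at 3.21 and 3.29 on wild-type Flt3+ arrays and Wfdc21 at 1.27 and 1.26 on wild-type Flt3- arrays.

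The clearest feature was that the adjoining WAP genes did not share one pattern: Wfdc17 and Wfdc18 were high in Flt3+ cells and, within those, lower on the arrays labelled Irf8KO, whereas Wfdc21 was high in Flt3- cells. Wfdc17 read 3.21 and 3.29 on wild-type Flt3+ arrays, against -2.72 and -2.61 on wild-type Flt3- arrays. The Irf8KO arrays gave -0.34 and -0.28 in Flt3+ cells, and -5.57 and -6.12 in Flt3- cells, where neither array was well above background. No pair of groups overlapped, and the order was wild-type Flt3+, Irf8KO Flt3+, wild-type Flt3-, Irf8KO Flt3-.

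Within wild type, Wfdc17 was 60.4-fold higher in Flt3+ than in Flt3- cells, a log2 difference of 5.92 with a standard error (SE) of 0.17. The wild-type Flt3- arrays behind that fold had low processed intensities of 62.4 and 71.9, though well above background. In Flt3+ cells Wfdc17 was 11.8-fold lower on the arrays labelled Irf8KO than in wild type (-3.56, SE 0.17). Folds against a group with no array well above background are lower bounds, taken against the dimmest probe that was still well above background on each array. On that footing, Wfdc17 in Flt3- cells was at least 4.73-fold lower on the arrays labelled Irf8KO, and in the Irf8KO genotype it was at least 24.2-fold higher in Flt3+ cells. The group with both arrays dim sets the size of these differences: with normexp background correction, which adds an offset of 50, the log2 difference by genotype in Flt3- cells went from -3.18 to -0.71 and that between populations in Irf8KO from 5.53 to 2.33.

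Wfdc18 had the same order in Flt3+ cells but was near the background in Flt3- cells. It read 1.11 and 1.13 on wild-type Flt3+ arrays and -1.26 and -1.22 on arrays labelled Irf8KO Flt3+. In wild-type Flt3- cells it read -3.51 on array 1, which was well above background, and -7.24 on array 2, which was not. Neither Irf8KO Flt3- array (-6.86 and -7.10) was well above background, and these overlapped the wild-type Flt3- pair.

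The split between the wild-type Flt3- arrays decided the precision of Wfdc18. Its population difference in wild type was 6.49 (SE 1.10), 4.62 without wild-type Flt3- replicate 2 and 8.36 without replicate 1, and 3.61 with normexp. By genotype in Flt3+ cells it was 5.13-fold lower on the arrays labelled Irf8KO (-2.36). The fit shares 1 spread over all groups, so that the SE of this difference was also 1.10. It was 0.088 without wild-type Flt3- replicate 2, where the 1 array left in that group adds no spread. The same holds without replicate 1, so the smaller SE does not show which array was off. In Flt3- cells the difference of -1.61 turned to 0.26 without wild-type Flt3- replicate 1 and to -3.47 without replicate 2, and was -0.10 with normexp, so no fold is given. In Irf8KO, Wfdc18 was at least 12.7-fold higher in Flt3+ than in Flt3- cells, with a log2 difference of 5.74 that went to 1.72 with normexp.

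Monocyte and macrophage markers are given because Wfdc17 is known from macrophages. Their summed signal, in units of the 75th percentile of the array, was 67.0 to 70.0 in wild-type Flt3+ cells, 66.3 to 66.7 in wild-type Flt3- cells, 142 to 147 in Irf8KO Flt3+ cells and 152 in Irf8KO Flt3- cells. Of these 12 markers, 10 were well above background in both wild-type groups, 7 in Irf8KO Flt3+ cells and 8 in Irf8KO Flt3- cells. Ms4a7 was not above background in any group, C1qa and C1qc not in either Irf8KO group, and Vcam1 not in Irf8KO Flt3+ cells. The summed signal was higher and the number of markers above background lower in both Irf8KO groups than in the wild-type groups. The part of such cells in the Wfdc17 signal was not tested.

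Wfdc21 ran the other way between the populations. It read -3.75 and -3.86 on wild-type Flt3+ arrays and 1.27 and 1.26 on wild-type Flt3- arrays, a 33.5-fold lower level in Flt3+ cells (-5.07, SE 0.067). The Irf8KO arrays gave -2.41 and -2.26 in Flt3+ cells and -0.03 and -0.00 in Flt3- cells. Both Irf8KO groups therefore lay between the wild-type extremes, and none of the 4 groups overlapped.

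By genotype, Wfdc21 was 2.77-fold higher on the arrays labelled Irf8KO in Flt3+ cells (1.47, SE 0.067) and 2.42-fold lower in Flt3- cells (-1.28, SE 0.067). The population difference was 4.99-fold in Irf8KO (-2.32), against 33.5-fold in wild type. With normexp the difference by genotype in Flt3+ cells was 0.83. The population difference in wild type rests on the same wild-type Flt3+ arrays, with low processed intensities of 35.1 and 43.7. The probe is printed as 10 spots on each array, of which 7 to 10 remained after outlier spots were left out. Their SD on the log2 scale was 0.028 to 0.18, and the spots of one group never reached those of another. 

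The genes on both sides of the WAP genes were looked at as well, chosen after their values were seen. Heatr6, next to Wfdc21, differed by -0.12 between the wild-type populations (limma, adjusted p = 0.207) and by -0.23 between those of Irf8KO (adjusted p = 0.0458, a call that ended when any single array other than Irf8KO Flt3+ replicate 2 was left out). By genotype it differed by 0.08 in Flt3+ cells (adjusted p = 0.458) and by 0.19 in Flt3- cells (adjusted p = 0.0828, and 0.0393 with the replicate block). On the side of Wfdc17 lie the chemokine genes Ccl4, with 4 genes and 0 protein-coding genes in between, and Ccl3. Ccl3 was 18.6-fold higher in wild-type Flt3+ than Flt3- cells (4.21, limma adjusted p = 7.04e-07) and Ccl4 11.4-fold (3.51, adjusted p = 5.31e-07). In Irf8KO the differences were 1.90 and 1.59 (adjusted p = 8.17e-06 and 5.35e-06). By genotype, Ccl3 and Ccl4 changed by -0.62 and -0.71 in Flt3+ cells (adjusted p = 0.0016 and 0.000309) and rose by 1.69 and 1.21 in Flt3- cells (adjusted p = 8.05e-05 and 8.43e-05).

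**Figure D2:**
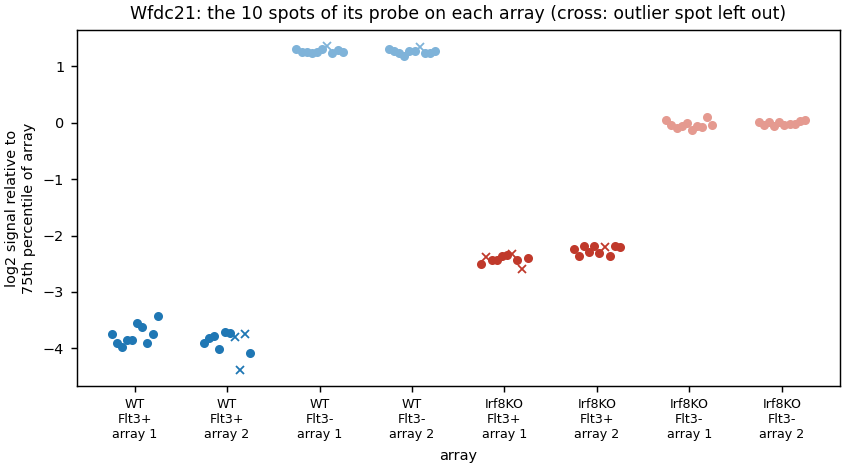
Signal of the 10 spots of the Wfdc21 probe on each array, as log2 relative to each array's 75th percentile, with crosses for outlier spots left out of the mean. The kept spots ran from -3.98 to -3.43 on wild-type Flt3+ array 1 and from 1.23 to 1.31 on wild-type Flt3- array 1.

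Slpi, the elastase inhibitor, was higher in Flt3- cells of both genotypes. It read 3.82 and 3.93 on wild-type Flt3+ arrays and 5.50 and 5.53 on wild-type Flt3- arrays. The Irf8KO arrays gave 3.40 and 3.51 in Flt3+ cells and 5.50 and 5.47 in Flt3- cells. The Flt3- groups of both genotypes overlapped, and every other pair of groups was apart.

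The population difference of Slpi was 3.12-fold in wild type (-1.64, SE 0.061) and 4.08-fold in Irf8KO (-2.03). By genotype it was 1.34-fold lower on the arrays labelled Irf8KO in Flt3+ cells (-0.42, SE 0.061). In Flt3- cells the difference was -0.03, within its SE, and 0.11 with quantile normalization. With quantile normalization the median of all genes between the wild-type populations moved from -0.115 to -0.013, and the wild-type difference of Slpi became -1.34.

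The stefin A genes were at or near background. None of the Stfa1 arrays was well above background except wild-type Flt3- array 1, which read -4.03 against -6.92 on array 2, and the other 6 arrays ran from -7.60 to -6.98. Stfa3 was well above background on wild-type Flt3- array 2 (-5.07) and Irf8KO Flt3- array 1 (-4.42), and the other 6 arrays ran from -6.38 to -5.13. Both genes were left out of the fit across genes, which needs both arrays of at least 1 group above background, and no fold is given for them.

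Stfa2 was the stefin above background on all 8 arrays, at low signal. It read -2.31 and -3.83 on wild-type Flt3+ arrays, -4.14 and -4.09 on wild-type Flt3- arrays, -4.20 and -4.02 on Irf8KO Flt3+ arrays and -3.28 and -3.85 on Irf8KO Flt3- arrays. The wild-type Flt3+ arrays had an SD of 1.08 (n = 2), as large as the difference between the wild-type groups. The population difference in wild type was 1.04 (SE 0.48), 0.28 without wild-type Flt3+ replicate 1 and 1.80 without replicate 2, and 0.26 with normexp. By genotype in Flt3+ cells it was -1.04, -0.28 without wild-type Flt3+ replicate 1, -1.80 without replicate 2 and -0.32 with normexp. The differences of 0.55 by genotype in Flt3- cells and -0.54 between populations in Irf8KO were close to their SE of 0.48.

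Mature neutrophil markers were looked at because these cells are known for stefins. Their summed signal was 8.82 to 8.97 in wild-type Flt3+ cells, 16.8 to 17.3 in wild-type Flt3- cells, 38.8 to 39.6 in Irf8KO Flt3+ cells and 34.4 to 34.5 in Irf8KO Flt3- cells. Of the 11 markers on the array, 9 were well above background in both wild-type groups, 11 in Irf8KO Flt3+ cells and 10 or 11 in Irf8KO Flt3- cells. Mmp9 was not above background in either wild-type group. The part of these cells in the signals of the inhibitors was not tested.

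Cstb, the cystatin B gene, and Serpinb1a had small differences and tight arrays. Cstb read 2.78 and 2.74 on wild-type Flt3+ arrays, 3.31 and 3.38 on wild-type Flt3- arrays, 2.91 and 2.94 on Irf8KO Flt3+ arrays and 3.39 and 3.39 on Irf8KO Flt3- arrays. It was lower in Flt3+ than in Flt3- cells by a log2 difference of -0.59 in wild type (SE 0.044, and -0.39 with quantile normalization) and -0.47 in Irf8KO, which is 1.38-fold. By genotype, Cstb differed by 0.16 in Flt3+ cells (0.10 with normexp and 0.11 with quantile normalization) and by 0.04 in Flt3- cells, the latter close to its SE of 0.044.

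Serpinb1a read 5.72 and 5.79 on wild-type Flt3+ arrays, 6.56 and 6.53 on wild-type Flt3- arrays, 5.84 and 5.89 on Irf8KO Flt3+ arrays and 6.46 and 6.44 on Irf8KO Flt3- arrays. The Flt3- groups were the higher ones, and none of the 4 groups overlapped. Flt3+ cells were 1.73-fold lower in wild type (-0.79, SE 0.045, and -0.41 with quantile normalization) and lower by a log2 difference of -0.58 in Irf8KO. By genotype, the differences were 0.11 in Flt3+ cells and -0.10 in Flt3- cells, and with quantile normalization both were near 0, at -0.019 and -0.0024, so that the direction in Flt3+ cells turned.

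**Figure D3:**
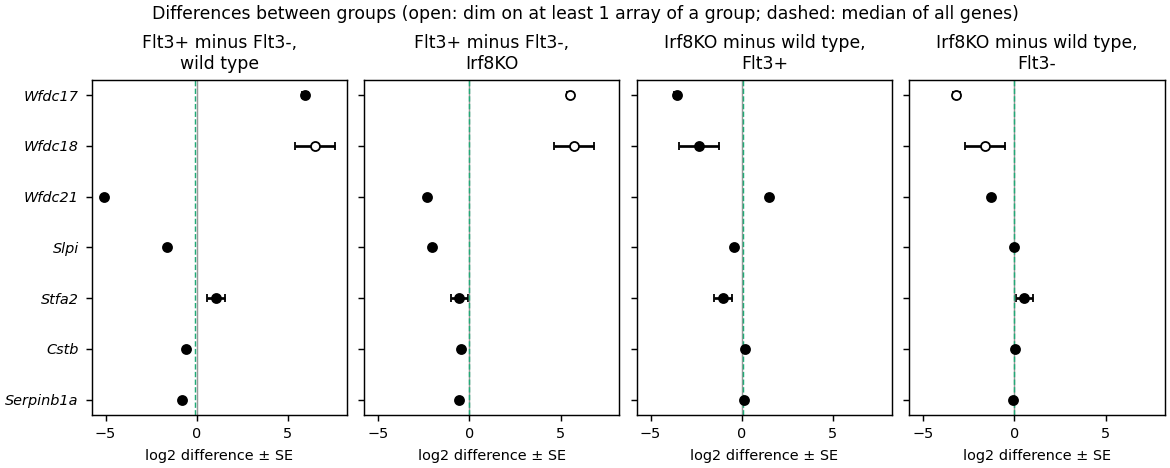
Log2 differences between groups with their SE from the fit of all genes (n = 2 arrays a group), for the 7 genes that passed the filter on dim probes. Open points have a group with at least 1 array not well above background, and the dashed line is the median of all genes. Wfdc17 lies at 5.92 and 5.53 between populations and Wfdc21 at -5.07 and -2.32.

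The filter was passed by 7 of the 9 genes and not by Stfa1 and Stfa3. Across all 14109 genes fitted, limma at an adjusted p under 0.05 called 61.9% between the wild-type populations, 29.0% by genotype in Flt3+ cells, 43.6% by genotype in Flt3- cells and 45.8% between the populations of Irf8KO. Of the 7 genes, 6, 4, 2 and 6 lay past that threshold in the same order, with median log2 differences of -0.59, -0.42, -0.10 and -0.54 against -0.12, 0.04, -0.03 and -0.03 over all genes. As the genes were chosen on these signals, nothing is read from those counts. The comparisons share groups with each other and are not independent.

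Among 14104 genes compared, all with a value on every array, the pattern most like Wfdc17, measured as the smallest root mean square (RMS) difference of centred log2 values over the 8 arrays, was that of its neighbour Wfdc18 (1.21), followed by Ddx4 (1.39) and Tnfrsf13c (1.41). For Wfdc18 the closest were Ddx4 (0.788), Wfdc17 (1.21) and Sema3d (1.29). Wfdc21, although next to both, was closest to Degs2 (0.313), Ms4a3 (0.518) and Pilrb1 (0.527), and its RMS difference from Wfdc17 was 5.08. Ms4a3, a gene of granulocyte and monocyte progenitors, was lower in wild-type Flt3+ cells by a log2 difference of -5.30, beside -5.07 for Wfdc21. Some of these likenesses rest in part on background readings. Degs2 and Pilrb1 had means of -7.17 and -7.11 in wild-type Flt3+ cells, where the dimmest probes well above background read -5.07 and -5.39. Sema3d had means of -6.94 in wild-type Flt3- cells (dimmest such probes -5.04 and -5.50) and -6.86 in Irf8KO Flt3- cells (-4.79 and -5.02).

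For Slpi the closest patterns were Ptgs1 (0.0585), Sec24d (0.0874) and Tent5a (0.0956). Ptgs1, which encodes cyclooxygenase 1, differed by -1.61 between the wild-type populations and by -0.36 by genotype in Flt3+ cells, beside -1.64 and -0.42 for Slpi. Stfa2 was closest to Uty (0.208), Ssmem1 (0.266) and Nav2 (0.272). Cstb was closest to Lman2l (0.0339), Tnfaip8 (0.0392) and Slc37a4 (0.0402), and Serpinb1a to Creg1 (0.0198), Tacc1 (0.0311) and Npepps (0.0357). Between themselves, Cstb and Serpinb1a differed by 0.103, which put Cstb at place 231 of the genes around Serpinb1a.

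Serine and cysteine proteases, among them known targets of these inhibitors, were measured on the same arrays. Of 22 protease genes fitted, out of 25 on the array, 9 rose and 11 fell in Flt3+ against Flt3- cells of wild type, and 6 rose and 15 fell in Irf8KO. By genotype, 6 rose and 6 fell in Flt3+ cells, and 7 rose and 9 fell in Flt3- cells. Their medians were -0.35, -0.57, -0.05 and 0.08 in the same order. Of all 14109 genes fitted, 3194 rose and 5535 fell between the wild-type populations, and 3121 rose and 3336 fell between those of Irf8KO. By genotype, 2322 of all genes rose and 1766 fell in Flt3+ cells, and 2322 rose and 3836 fell in Flt3- cells.

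Of 10 serine proteases fitted, 3 rose and 5 fell in wild-type Flt3+ against Flt3- cells, and 4 rose and 4 fell by genotype in Flt3+ cells. Those of the azurophil granule were higher in Flt3- cells and rose in Flt3+ cells of the Irf8KO genotype. Elane, neutrophil elastase, a target of Slpi and Serpinb1a, read 3.66 and 3.58 on wild-type Flt3+ arrays, 8.36 and 8.25 on wild-type Flt3- arrays, 5.96 and 5.96 on Irf8KO Flt3+ arrays and 8.78 and 8.80 on Irf8KO Flt3- arrays. It was 25.7-fold lower in wild-type Flt3+ than Flt3- cells (-4.68, limma adjusted p = 5.31e-07) and 5.07-fold higher on Irf8KO than wild-type Flt3+ arrays (2.34, adjusted p = 7.19e-06). In Flt3- cells it rose by 0.49 (adjusted p = 0.00142).

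Prtn3, proteinase 3, moved in the same directions, with differences of -2.78 between wild-type populations, 1.27 by genotype in Flt3+ cells and 0.26 in Flt3- cells (limma adjusted p = 9.32e-07, 5.29e-05 and 0.00911), the last with adjusted p = 0.055 without wild-type Flt3- replicate 2. Ctsg, cathepsin G, differed by -1.92, 0.88 and 0.16 (adjusted p = 5.16e-06, 0.000329 and 0.0811). Prss57, a serine protease of the same granules, differed by -2.89, 1.10 and 0.38 (adjusted p = 6.76e-07, 4.71e-05 and 0.00149). By genotype in Flt3+ cells these 4 proteases were thus higher on the arrays labelled Irf8KO, whereas the difference of Slpi was -0.42 and that of Serpinb1a 0.11 (-0.019 with quantile normalization).

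Prss34, a protease known from basophils, changed by -4.58 in Flt3+ cells and by -2.69 in Flt3- cells on the arrays labelled Irf8KO (limma adjusted p = 4.95e-06 and 6.11e-05). Gzma, a granzyme, fell by 1.52 in Flt3+ cells (adjusted p = 0.000464). The summed signal of the 10 eosinophil, basophil and mast cell markers was 12.4 to 13.1 in wild-type Flt3+ cells and 144 in wild-type Flt3- cells, and 6.38 to 6.72 and 71.2 to 71.3 in the Irf8KO groups. Of these 10 markers, 9 and 10 were well above background in the wild-type groups and 8 and 9 in the Irf8KO groups. Fcer1a was not above background in either Irf8KO group, and Ms4a2 not in either Flt3+ group. The part of such cells in the signals was not tested.

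Cysteine proteases, among them cathepsins that stefins and cystatin B target, divided by population. Of 12 fitted, 6 rose and 6 fell in wild-type Flt3+ against Flt3- cells. These 12 include Lgmn, Capn1 and Capn2, which are not cathepsins. Ctss, cathepsin S, read 3.40 and 3.53 on wild-type Flt3+ arrays, 0.90 and 0.91 on wild-type Flt3- arrays, 2.84 and 2.98 on Irf8KO Flt3+ arrays and -0.76 and -0.92 on Irf8KO Flt3- arrays. It rose 5.90-fold in wild-type Flt3+ against Flt3- cells (2.56, limma adjusted p = 5.44e-06) and changed by -0.55 and -1.75 by genotype in Flt3+ and Flt3- cells (adjusted p = 0.00577 and 0.000132). Lgmn, legumain, a cysteine protease of lysosomes that cystatins such as Cst3 also block, rose by 3.73 between the wild-type populations (adjusted p = 0.000115) and fell by 1.85 by genotype in Flt3- cells (adjusted p = 0.00365), where 1 of the Irf8KO arrays was not well above background.

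Ctsh, cathepsin H, a known target of stefins, changed by -2.85 in Flt3+ and by -1.66 in Flt3- cells on the arrays labelled Irf8KO (limma adjusted p = 1.57e-06 and 1.68e-05). Ctsb, cathepsin B, differed by -0.83 between the wild-type populations and by -1.12 between those of Irf8KO, lower in Flt3+ cells (adjusted p = 7.02e-05 and 3.00e-05), and its differences by genotype were -0.14 and 0.15 (adjusted p = 0.112 and 0.065, the latter 0.0378 with the replicate block). Ctsl, cathepsin L, rose by 0.57 and 0.53 by genotype in Flt3+ and Flt3- cells (adjusted p = 0.00668 and 0.00534). Ctsc, the cathepsin that activates granule serine proteases, fell by 0.50 between the wild-type populations (adjusted p = 0.00126) and differed by -0.52 by genotype in Flt3- cells (adjusted p = 0.00227).

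**Figure D4:**
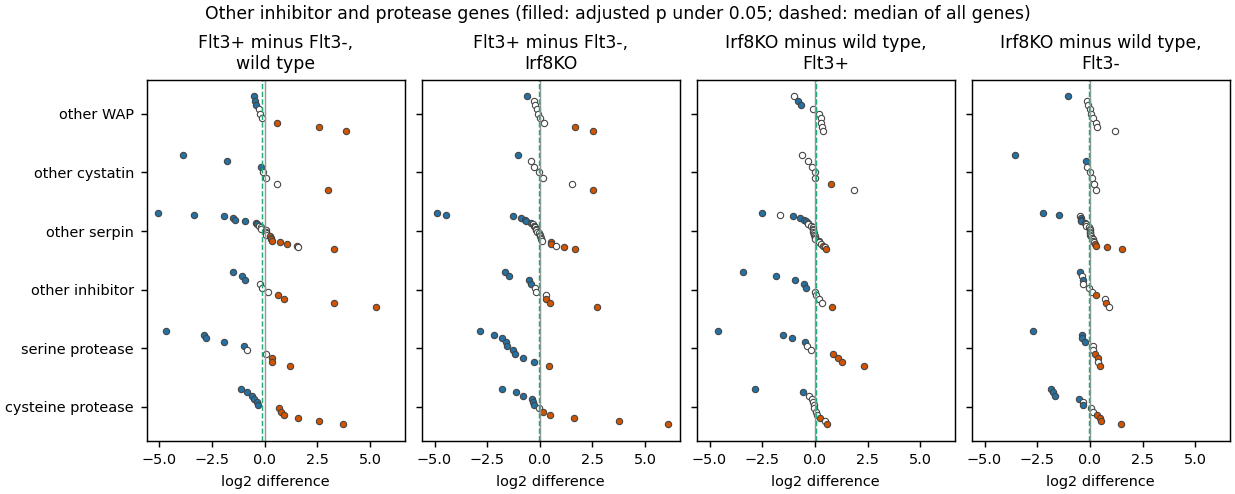
Log2 differences of the other inhibitor genes and of the protease genes in the 4 comparisons, 1 point per gene, with filled points at a limma adjusted p under 0.05 and the dashed line at the median of all genes. In the Irf8KO genotype 15 of 22 proteases were called lower in Flt3+ than in Flt3- cells and 6 higher. Of all 14109 genes, 3336 were called lower and 3121 higher.

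Other protease inhibitor lists were on the array as 112 genes, of which 50 passed the filter. They hold other WAP, cystatin and serpin genes, and 17 inhibitors of further families (10 fitted), such as Timp3 and Spint1. Between the wild-type populations 15 rose and 17 fell in Flt3+ cells, and in Irf8KO 10 rose and 14 fell. By genotype 5 rose and 12 fell in Flt3+ cells, and 6 rose and 11 fell in Flt3- cells. Their medians were -0.11, -0.12, -0.06 and 0.01, against -0.12, -0.03, 0.04 and -0.03 over all genes. The calls of all genes are given with the proteases above. With normexp the splits were 12 and 22 between the wild-type populations, 8 and 9 by genotype in Flt3+ cells and 11 and 8 in Flt3- cells.

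Of 19 other WAP genes, 9 were fitted, and 3 rose and 3 fell in wild-type Flt3+ against Flt3- cells. Wfdc2, a secreted WAP protein, was at least 8.88-fold higher in wild-type Flt3+ cells (limma adjusted p = 0.000538), with both Flt3- arrays not well above background. By genotype in Flt3+ cells it was 2.01-fold lower, which missed the threshold (adjusted p = 0.132). Like Wfdc17 and Wfdc18, it thus had its highest arrays in wild-type Flt3+ cells, at -2.08 and -2.17.

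Of 20 other cystatin genes, 7 were fitted. Cst3, cystatin C, a secreted inhibitor of cysteine cathepsins, fell by 0.20 between the wild-type populations (limma adjusted p = 0.00807, and 0.0515 without wild-type Flt3- replicate 1), and this turned to 0.17 with quantile normalization. By genotype in Flt3- cells it fell by 0.16 (adjusted p = 0.0272), a call that ended with quantile normalization (-0.053), with no filter, with only the 2 groups compared, and without Irf8KO Flt3- replicate 1, either wild-type Flt3- replicate or either Irf8KO Flt3+ replicate. Kng2, a kininogen, read -4.61 and -2.75 on wild-type Flt3- arrays and was not above background in wild-type Flt3+ or Irf8KO Flt3- cells, differences with limma adjusted p = 0.00261 and 0.00651. Its bound of at least 2.93-fold between the wild-type populations was 1.54-fold without wild-type Flt3- replicate 2 and 5.58-fold without replicate 1, and that of 2.35-fold by genotype in Flt3- cells was 1.23-fold and 4.46-fold. Ahsg, fetuin A, was at least 2.50-fold higher in wild-type Flt3+ cells (adjusted p = 4.07e-05), at a low signal of -4.02 and -3.88. Its difference of 2.54 between the populations of Irf8KO went to 0.14 with normexp, which ended that call.

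Of 56 other serpin genes, 24 were fitted, with 7 rising and 8 falling between the wild-type populations. Serpine2, protease nexin 1, was 33.2-fold lower in wild-type Flt3+ than Flt3- cells (-5.05, limma adjusted p = 1.04e-06) and 29.5-fold lower in Irf8KO, while its genotype differences were -0.004 and -0.17 (adjusted p = 0.979 and 0.195). Serpinb10, a myeloid serpin of the same clade as Serpinb1a, was 10.4-fold lower in wild-type Flt3+ than Flt3- cells (adjusted p = 2.43e-05). On the arrays labelled Irf8KO, Serpinb10 was at least 2.70-fold lower in Flt3+ cells and 2.72-fold lower in Flt3- cells (adjusted p = 0.000304 and 0.00156).

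Serpinf1, pigment epithelium derived factor, changed by -1.05 and -0.43 by genotype in Flt3+ and Flt3- cells (limma adjusted p = 0.000178 and 0.00279). Serpinh1, a collagen chaperone rather than an inhibitor, was at least 6.18-fold higher in wild-type Flt3+ than Flt3- cells (adjusted p = 5.25e-05) and at least 1.81-fold higher on Irf8KO than wild-type Flt3- arrays (adjusted p = 0.00238). Serpinc1, antithrombin, was at least 2.15-fold lower on Irf8KO than wild-type Flt3- arrays (adjusted p = 0.0206; 1.28-fold without wild-type Flt3- replicate 1 and 3.59-fold without replicate 2), a call that ended with normexp, with only the 2 groups compared, and without either Irf8KO Flt3- replicate or wild-type Flt3- replicate 1. Serpinb6a, a widely expressed cytosolic serpin, differed by at most 0.06 in size in the 4 comparisons (adjusted p from 0.489 to 0.931).

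Of 17 further inhibitors, 10 were fitted. Spint1, a Kunitz inhibitor at the cell surface, was at least 14.4-fold higher in wild-type Flt3+ than Flt3- cells (limma adjusted p = 0.000139) and 3.55-fold lower on Irf8KO than wild-type Flt3+ arrays (adjusted p = 0.0234), the latter not called when any single array of those groups was left out (adjusted p 0.0729 to 0.0989). Timp3, an inhibitor of metalloproteases, was well above background in wild-type Flt3+ cells alone, at -4.00 and -3.60. It was at least 2.78-fold higher there than in wild-type Flt3- cells and at least 2.89-fold lower on Irf8KO than wild-type Flt3+ arrays (adjusted p = 7.40e-05 and 0.000274).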

How the data were processed

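RNA of 4 groups of sorted progenitors was measured on 8 one-colour (Cy3) arrays, and titles gave the groups and experiment numbers. Per the file headers, the authors extracted spot intensities with Agilent Feature Extraction 10.7.3.1 (protocol GE1_107_Sep09); these deposited intensities are linear and not scaled between arrays. The deposited flags (0 or 1) for well above background and outlier spots were also used. The deposited series table holds linear intensities, of which 99.8 to 99.9% per array lay within 1% of the processed one times 1 factor per array (0.672 to 1.33), with no centring, a 75th percentile of 426.2 in every column and column medians of 29.9, 28.7, 26.9, 28.0, 28.7, 27.1, 27.5 and 27.6. The authors' steps behind that table were not given in the sources used here, and it served as an alternative.

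Control spots and outlier spots (93 to 178 an array) were left out, spots of a probe were averaged, and log2 values minus the 75th percentile of each array were taken. Probes were named through the accession in the files and the RefSeq gene table (26762 of 55681 probes, 20284 genes; 1628 RefSeq probes were not matched), and the brightest probe stood for a gene. A probe was kept where some group had it well above background on both arrays. Group means were fitted with limma 3.58.1 in R 4.3.3 (lmFit, eBayes) over all 8 arrays, with Benjamini-Hochberg adjustment over 14109 genes and a threshold of 0.05; the fit was tested on simulated data. The labels give each array an experiment number, 1 or 2, which pairs the groups; deviations of same-numbered arrays correlated at -0.028 to 0.12 between groups, and the replicate block was an alternative. For 4 genes, a missing array was dropped from the fit.

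The genes and lists were chosen with earlier results of these data known. Named were all 9 genes; of the other inhibitors and of the proteases, the 4 called genes per comparison with the largest difference and no overlap; Elane, Prtn3, Ctsg, Ctsc, Ctsb, Ctsl, Ctss, Cst3, Serpinb6a, Irf8 and Flt3; and the 3 genes most like each member that was well above background in a group. The surface marker served as a check: Flt3 was higher in Flt3+ cells by 4.54 in wild type and 3.60 in Irf8KO. By genotype, Flt3 differed by 0.08 in Flt3+ cells (limma adjusted p = 0.156). In Flt3- cells it was higher by 1.02 on the arrays labelled Irf8KO (limma adjusted p = 7.84e-05). The part of this in the genotype differences of Flt3- cells was not tested. Alternatives were normexp (offset 50), quantile normalization, no filter, the experiment as a block, only the 2 groups compared, the mean of a gene's probes, the deposited table, and leaving out each array. Some genes of the marker lists are not reported here by name. The number of arrays limits the precision.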

Additional observations from a re-analysis of the deposited data

Results flagged for a closer look

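Some differences of named genes had opposite directions in the 2 populations or genotypes, with every array of a group on one side of the other group's arrays. Listed are cases in which each difference had a group with both arrays well above background. None of these contrasts between differences was tested. Many of the named genes were picked for differences without overlap, and the share of all genes with such a pattern was not counted. Several single differences were not past the threshold, among them those of Stfa2 and the genotype differences of Serpinb1a. Wfdc21 differed by genotype by 1.47 in Flt3+ cells and by -1.28 in Flt3- cells. For Stfa2 the genotype difference was -1.04 in Flt3+ and 0.55 in Flt3- cells, and its population difference was 1.04 in wild type and -0.54 in Irf8KO; the values in Flt3+ cells and in wild type became -0.28 and 0.28 without wild-type Flt3+ replicate 1. Serpinb1a differed by genotype by 0.11 and -0.10, and by -0.019 in Flt3+ cells with quantile normalization. Lgmn differed by genotype by 0.49 in Flt3+ cells and by -1.85 in Flt3- cells (limma adjusted p = 0.232 and 0.00365). Ctsb differed by -0.14 and 0.15 (limma adjusted p = 0.112 and 0.065). Between populations, Serpinf1 differed by 0.36 in wild type and -0.25 in Irf8KO. Prss34 likewise differed by 0.35 and -1.54, and Gzma by 0.36 and -0.79. The wild-type difference of Gzma was not called with no filter, quantile normalization, the replicate block or normexp, where it was 0.17. By genotype, Ccl3 differed by -0.62 in Flt3+ and 1.69 in Flt3- cells, and Ccl4 by -0.71 and 1.21.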

How the results depend on the processing

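The number of genes called by genotype in Flt3+ cells, 4088, went to 2679 with no filter on dim probes and to 2665 with only the 2 groups compared. Leaving out 1 array gave 1996 to 3678 in Flt3+ cells (lowest without Irf8KO Flt3+ replicate 2, and 2183 without replicate 1) and 4054 to 6442, from 6158, in Flt3- cells (lowest without wild-type Flt3- replicate 2). The 17 other inhibitors called by genotype went to 11 to 17 in both populations. With quantile normalization, higher calls between the wild-type populations were 50.5% of calls against 36.6%, and the genotype difference of Serpinb1a in Flt3+ cells turned to -0.019.

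Of the 28 differences of the 7 genes fitted, 14 moved by more than their SE with normexp and 12 with quantile normalization. The replicate block, no filter, only the 2 groups and the mean of probes could not move them. Each of these genes has 1 probe, and those fits keep the same group means. The deposited table moved none, but it holds nearly the same intensities times 1 factor per array. Leaving out 1 array moved 16 and not the other 208. Of those 208, the cases that left out an array of neither group compared could not move. The experiment number as a replicate block gave 8783, 4008, 6202 and 6552 genes called, against 8729, 4088, 6158 and 6457 without it. Over the listed and neighbouring genes, the block ended 7 calls, among them Gzma between the wild-type populations (adjusted p = 0.0542) and by genotype in Flt3- cells (0.0617), added 4, among them Ctsb and Heatr6 by genotype in Flt3- cells, and changed no other call of those genes that the text names. Signals under background limit Stfa1, Stfa3, and Wfdc17 and Wfdc18 in Flt3- cells.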
